A study of Homo sapiens with 6 samples.

Results

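The genes described here make cholesterol and fatty acids or control how much of them a cell makes. They number 32 of the 60651 gene identifiers counted in each library and were chosen by name, as 18 enzymes of sterol synthesis, 6 genes of the SREBP control circuit, 7 enzymes of fatty acid synthesis and ABCA1, which exports cholesterol. All 32 had enough counts to enter the test, which covered 29086 genes. The cells were SK-N-AS, an established human neuroblastoma line without MYCN amplification, that stably carried a tetracycline-inducible MYCN gene under the tetracycline repressor. Single clones had been held under G418 and blasticidin. The 3 control cultures (labelled ETOH) and the 3 MYCN-induced cultures (labelled Tet, with tetracycline in the medium for 5 days) were both taken at 120 h. Both groups shared the clone background, the repressor and the drug selection, and only the induced group received tetracycline, so a response to MYCN and a response to tetracycline itself cannot be told apart. The study describes the cultures of a group as independent experiments.

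Cholesterol is built from acetyl-CoA through mevalonate, isoprenoid diphosphates, squalene and lanosterol, and fatty acids are built from the same acetyl-CoA through malonyl-CoA. Both routes are governed by the SREBP transcription factors (genes SREBF1 and SREBF2), which the escort protein SCAP carries from the endoplasmic reticulum to the Golgi for cleavage when membrane sterol is low, and which the INSIG proteins hold back when it is high. SREBF2 mainly serves the sterol enzymes and SREBF1 the fatty acid enzymes. When sterols are plentiful, the LXR receptors switch on ABCA1. Growing tumour cells need both products for new membranes.

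Averaged over the 3 cultures, most of these genes stayed near their control level after 5 days of MYCN induction, but the induced cultures differed. In induced replicates 1, 2 and 3, 22, 22 and 7 of the 32 members lay above the control mean. Of all tested genes 48.9%, 48.1% and 47.9% did. ABCA1 rose about 2-fold and TM7SF2, a reductase of late sterol synthesis, fell, and these were the only members past an adjusted p of 0.05 in edgeR's quasi-likelihood test with Benjamini-Hochberg adjustment. That is 1 of 32 members higher, where 1.02% of all tested genes were called higher, and 1 of 32 lower, where 2.38% of all tested genes were called lower. The members' median log2 fold change was 0.02, and that of all tested genes was 0.00. For 25 members the log2 fold change lay within 0.25 of 0, and for 20 members the whole 95% interval lay within 0.5 of 0. In 3 members (ABCA1, TM7SF2 and FASN) the interval held a 2-fold change. At an unadjusted p under 0.05 there was 1 member higher (8.13% of all genes) and there were 4 lower (10.6% of all genes). The library labelled MYCN-induced replicate 3 stood apart from the other induced libraries across the transcriptome and across most sterol genes, and values without it are given beside the results.

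**Figure D1:**
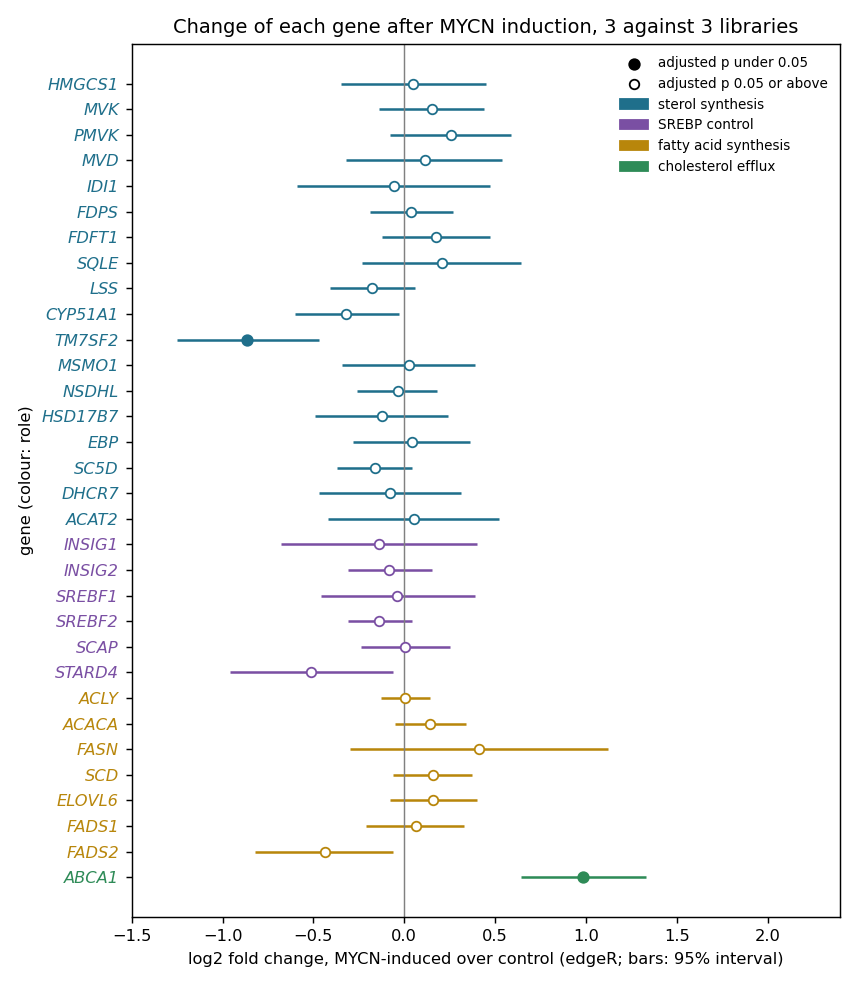
The x axis gives the log2 fold change of each gene, MYCN-induced over control (n = 3 against 3), with bars for the 95% interval, and the y axis lists the 32 genes coloured by role. Filled points have an adjusted p under 0.05 (edgeR). ABCA1 at 0.98 and TM7SF2 at -0.86 are the filled points, and FASN has the widest interval, from -0.30 to 1.12.

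The promoters of 5 genes are shown to place the members that carry the results below, the 2 called genes (ABCA1, TM7SF2), the 2 SREBP control genes farthest below the control mean in MYCN-induced replicate 3 (STARD4, INSIG1), and SREBF2, which encodes the factor behind sterol synthesis. Each is 300 bases of RefSeq sequence (GRCh38.p14), from 250 bases before to 50 bases after the gene's start, on the gene's strand. They lie at chr9:104928106-104928405 (minus strand), chr11:65111622-65111921 (plus strand), chr5:111512486-111512785 (minus strand), chr7:155297628-155297927 (plus strand) and chr22:41832855-41833154 (plus strand) in that order. Capitals mark a sterol regulatory element (letters TCACNCCAC, the site that SREBPs bind), an E-box (CACGTG, the site that MYC proteins and other basic helix-loop-helix factors bind) or a CCAAT box (CCAAT, the site of NF-Y, a usual partner of SREBPs). Matches on either strand count, and a CCAAT box on the other strand reads ATTGG.
ABCA1: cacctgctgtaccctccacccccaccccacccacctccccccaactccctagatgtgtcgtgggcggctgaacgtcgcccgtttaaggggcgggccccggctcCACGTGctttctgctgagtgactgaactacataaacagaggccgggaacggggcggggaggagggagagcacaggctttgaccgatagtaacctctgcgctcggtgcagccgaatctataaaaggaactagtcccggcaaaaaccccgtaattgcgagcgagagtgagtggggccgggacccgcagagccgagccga
TM7SF2: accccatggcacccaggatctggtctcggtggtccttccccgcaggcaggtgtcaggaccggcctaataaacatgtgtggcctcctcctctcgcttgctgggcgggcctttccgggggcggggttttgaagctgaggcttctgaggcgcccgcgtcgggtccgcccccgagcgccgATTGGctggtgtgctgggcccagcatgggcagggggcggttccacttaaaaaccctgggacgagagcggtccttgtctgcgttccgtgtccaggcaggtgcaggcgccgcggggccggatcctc
STARD4: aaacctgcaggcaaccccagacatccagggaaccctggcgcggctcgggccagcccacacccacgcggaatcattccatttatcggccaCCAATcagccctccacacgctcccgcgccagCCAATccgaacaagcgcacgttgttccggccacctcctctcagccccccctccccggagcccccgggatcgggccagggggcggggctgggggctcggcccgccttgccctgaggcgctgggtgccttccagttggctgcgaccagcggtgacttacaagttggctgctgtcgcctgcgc
INSIG1: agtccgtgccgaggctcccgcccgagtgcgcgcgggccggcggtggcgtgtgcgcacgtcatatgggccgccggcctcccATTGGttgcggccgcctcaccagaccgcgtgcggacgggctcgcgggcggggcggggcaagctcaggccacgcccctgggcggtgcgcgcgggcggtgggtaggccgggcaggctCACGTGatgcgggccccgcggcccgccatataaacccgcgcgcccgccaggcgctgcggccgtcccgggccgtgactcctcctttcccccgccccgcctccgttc
SREBF2: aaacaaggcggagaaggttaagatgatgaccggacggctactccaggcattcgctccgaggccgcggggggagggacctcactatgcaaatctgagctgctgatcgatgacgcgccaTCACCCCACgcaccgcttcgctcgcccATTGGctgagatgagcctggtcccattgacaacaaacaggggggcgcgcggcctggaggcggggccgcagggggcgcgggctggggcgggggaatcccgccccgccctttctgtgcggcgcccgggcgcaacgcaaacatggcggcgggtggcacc

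In these windows ABCA1 held an E-box that starts at -147 from the gene's start, and no CCAAT box. TM7SF2 held a CCAAT box at -74. STARD4 held CCAAT boxes at -161 and -130, and INSIG1 held a CCAAT box at -170 and an E-box at -55. SREBF2 held a sterol regulatory element at -133 beside a CCAAT box at -106, and no capitals of different motifs overlapped in these windows. RefSeq promoters matched 28 of the 32 members. A CCAAT box occurred in 20 of the 28 (71.4%), against 39.7% of all genes in the same table. Of these genes, 14 had a promoter with 2 or more. Counted per promoter, 10.8% of all promoters had 2 or more. The share per gene, which would be the like measure, was not computed. An E-box occurred in 5 of 28 (ABCA1, INSIG1, LSS, SC5D and SCAP, 17.9%), against 8.77% of all genes. The sterol regulatory element in these letters occurred in 1 of 28 (SREBF2), against 1.39% of all genes. These are letter matches in fixed windows and were not set against binding data.

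The libraries held 64500589 to 102249336 counted read pairs, the lowest being MYCN-induced replicate 1, and the lowest count of any member in any library was 146 (FDFT1). For members of few counts, such as FDFT1 and ABCA1, counting noise adds to the spread between cultures. Values are given as CPM (counts relative to the library total, scaled by TMM factors). MYCN itself was at 30.3, 35.5 and 32.4 CPM in control and at 211, 221 and 199 CPM in induced replicates 1 to 3 (log2 fold change 2.68, SE 0.08, adjusted p = 4.16e-05, edgeR), and reads of the construct and of the resident gene are not separated in this count. On the axis that held 44.8% of the variance, MYCN-induced replicate 3 lay at 69.1, the other induced libraries at 14.4 and 13.1, and the controls between -40.3 and -25.9. Control replicate 1 was low for GC-rich genes (Spearman correlation of the log ratio with GC content across genes -0.31, against 0.16 and 0.28 in the other controls). In MYCN-induced replicates 1, 2 and 3 that correlation was -0.12, -0.12 and 0.19. The part of this trend in the members' values in induced replicate 3 was not tested. The adrenergic neuroblastoma markers HAND2 and GATA3 were expressed in every library (the lowest values were 349 and 99.9 CPM), as was the mesenchymal marker VIM (360 CPM or more). Other markers of these lists were lower. The adrenergic CHGB did not reach 100 counts in every library, and the mesenchymal RUNX1 had too few counts to enter the test. Markers of other cell types were low, with EPCAM, PECAM1, ALB and HBB at or below 0.586 CPM and PTPRC at or below 2.07 CPM. Of 9 adrenergic markers, 4 had a log2 fold change above 0 and 5 below 0. CHGA and CHGB were called lower and 0 higher, with 4 lower and 0 higher at an unadjusted p under 0.05 and by DESeq2. Of all tested genes, edgeR called 1.02% higher and 2.38% lower. At an unadjusted p under 0.05, 8.13% of all tested genes were higher and 10.6% lower. The call of CHGA was lost with the GC correction (adjusted p = 0.0608, edgeR) and with a filter of 100 counts in each library (0.0620). It was also lost in 4 of the 6 fits that left out 1 library (up to 0.158, without control replicate 3). That of CHGB was lost in 4 of 6 (up to 0.109, without control replicate 2). Summed over 8 mesenchymal markers it was 499.8 to 522 CPM in control and 568 to 639 CPM in induced cultures. Of the 7 tested, 5 had a log2 fold change above 0. FN1 was called lower, with its call lost in 5 of the 6 fits that left out 1 library (up to 0.168, without control replicate 2), and 0 were called higher. At an unadjusted p under 0.05 there were 4 higher and 2 lower, and DESeq2 called 2 higher and 1 lower. In bulk RNA, fewer cells of a kind and less RNA per cell cannot be told apart.

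Sterol synthesis begins with ACAT2, which joins acetyl-CoA units, and HMGCS1, which makes HMG-CoA. HMGCS1 was at 89.4, 85.8 and 79.0 CPM in control and at 95.1, 105 and 62.8 CPM in induced cultures, with a log2 fold change of 0.05 (95% interval -0.35 to 0.45). ACAT2 was at 21.7, 20.2 and 19.4 CPM in control and at 23.9, 25.6 and 14.0 CPM in induced cultures. For both genes induced replicates 1 and 2 lay above every control and replicate 3 below every control. The kinases MVK and PMVK and the decarboxylase MVD, which turn mevalonate into isopentenyl diphosphate, did not follow that split. PMVK was at 10.03, 13.1 and 13.6 CPM in control and at 12.7, 16.0 and 15.2 CPM in induced cultures (log2 fold change 0.26, 95% interval -0.08 to 0.59). In MVK, PMVK and MVD control replicate 1 was the lowest of the 6 libraries, and their GC content is 58.6%, 59.0% and 63%.

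IDI1 isomerizes isopentenyl diphosphate and FDPS joins the units to farnesyl diphosphate. IDI1 was at 67.7, 62.9 and 61.3 CPM in control and at 64.6, 81.1 and 38.5 CPM in induced cultures, the latter differing more among themselves than from the controls. FDPS was at 88.4, 84.1 and 81.7 CPM in control and at 94.5, 92.2 and 74.5 CPM in induced cultures. SQLE, the epoxidase that commits squalene to sterols, was at 90.4, 95.1 and 97.3 CPM in control and at 110, 140 and 76.4 CPM in induced cultures. Its log2 fold change of 0.21 (95% interval -0.23 to 0.64) did not pass the test. FDFT1, the synthase that makes squalene, had few counts in all libraries, at 1.85 to 2.03 CPM in control and 1.96 to 2.37 CPM in induced cultures. Per exon length its level in control was 0.614 TPM, against 37.5 TPM for FDPS and 35.9 TPM for SQLE, the enzymes before and after it. Only pairs that aligned uniquely were counted, how many pairs of FDFT1 were left out that way was not tested, and its counted level may understate its expression. LSS, which closes the ring to lanosterol, was at 27.4 to 33.8 CPM in control and 26.0 to 29.1 CPM in induced cultures.

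TM7SF2 reduces the double bond that CYP51A1 leaves when it removes a methyl group from lanosterol. TM7SF2 was at 9.70, 12.2 and 15.4 CPM in control and at 6.40, 7.26 and 6.85 CPM in induced cultures. Every induced culture lay below every control, and the controls were the more spread. The log2 fold change was -0.86 (SE 0.17, 95% interval -1.25 to -0.47, adjusted p = 0.0382, edgeR). The order of the 3 controls is the order of their GC trend, TM7SF2 has a GC content of 62.7%, and with a GC correction added after seeing the data the log2 fold change was -0.88 (adjusted p = 0.00433). The call was lost without control replicate 2 (adjusted p = 0.168), control replicate 3 (0.110), induced replicate 1 (0.142) or induced replicate 2 (0.0811), with log2 fold changes of -0.88, -0.68, -0.81 and -0.91 in that order, in fits of fewer libraries that also called fewer of all genes. CYP51A1 was at 41.5, 41.0 and 40.9 CPM in control and at 34.5, 37.8 and 26.7 CPM in induced cultures, which did not overlap, with a log2 fold change of -0.32 (SE 0.12) that did not pass the test (adjusted p = 0.216, edgeR). Of the exon bases of CYP51A1, 84.5% are shared with other annotated genes, mostly on the same strand, so its counts were split between them.

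The later enzymes strip the remaining methyl groups (MSMO1, NSDHL, HSD17B7) and move or reduce the double bonds (EBP, SC5D, DHCR7), and none of these 6 passed the test. MSMO1 was at 45.8, 44.6 and 43.0 CPM in control and at 49.9, 52.8 and 33.2 CPM in induced cultures. DHCR7, which completes cholesterol on its branch, was at 29.0, 31.1 and 30.5 CPM in control and at 32.04, 33.1 and 20.5 CPM in induced cultures. EBP was at 26.4, 26.7 and 26.9 CPM in control and at 30.4, 30.7 and 21.3 CPM in induced cultures. In all 3 genes induced replicates 1 and 2 lay above every control and replicate 3 below every control. Over the 18 sterol enzymes, edgeR called 0 higher and 1 lower (5.56%), and the median log2 fold change was 0.03. Of all tested genes, 1.02% were called higher and 2.38% lower. At an unadjusted p under 0.05 there were 0 higher and 2 lower (TM7SF2 and CYP51A1, 11.1%), where 8.13% and 10.6% of all tested genes were. DESeq2 called 0 sterol enzymes higher and 1 lower.

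**Figure D2:**
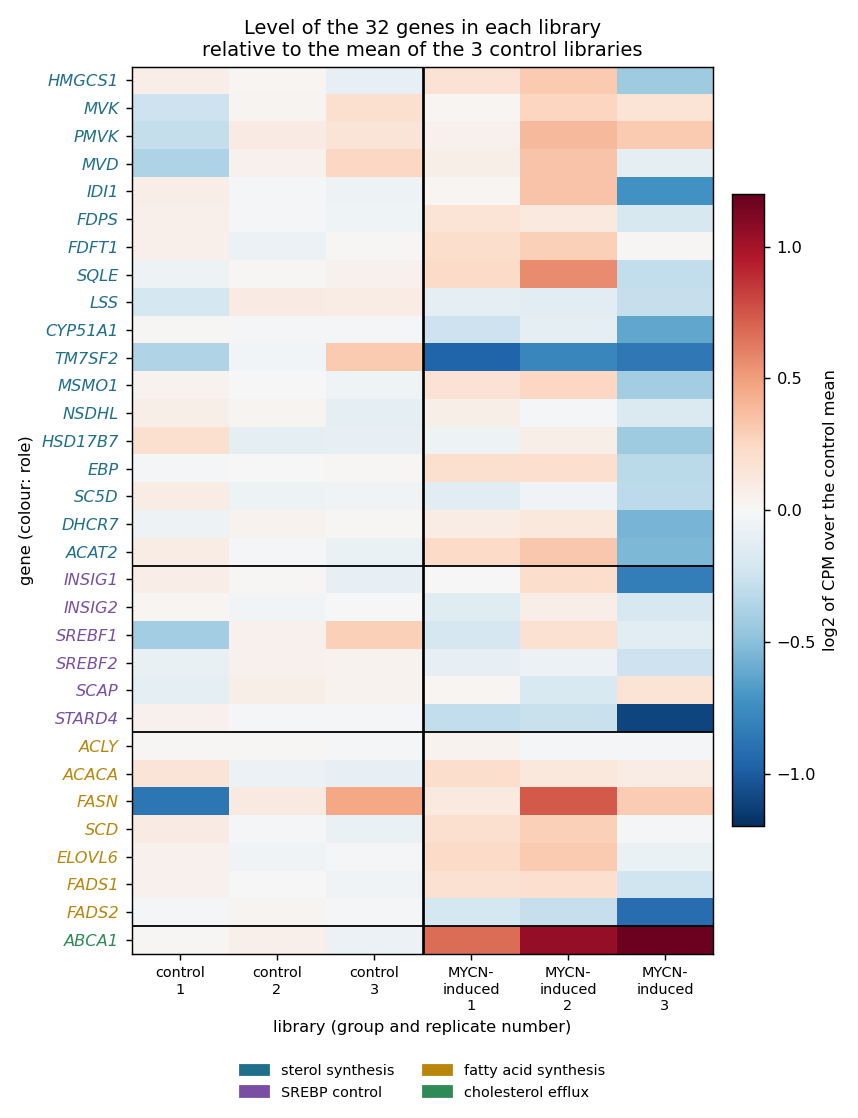
Rows are the 32 genes grouped by role and columns are the 6 libraries. Colour gives the log2 of the CPM over the mean of the 3 controls, red for higher and blue for lower. The last column, MYCN-induced replicate 3, is blue for most sterol and SREBP control genes, down to -1.10 for STARD4, while ABCA1 is red in all 3 induced libraries.

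The SREBP control circuit had 0 of 6 genes called in either direction by edgeR and by DESeq2. At an unadjusted p under 0.05, 0 were higher and 1 was lower (STARD4, 16.7%), where 8.13% and 10.6% of all tested genes were. STARD4 carries cholesterol between membranes and reports it to the endoplasmic reticulum. It was at 96.9, 92.3 and 92.4 CPM in control and at 76.0, 77.7 and 43.9 CPM in induced cultures, with no overlap between the groups. Its log2 fold change was -0.51 (SE 0.19, adjusted p = 0.211, edgeR). INSIG1, the sterol-responsive brake on SREBP transport, was at 17.7, 16.9 and 15.7 CPM in control and at 16.8, 19.4 and 9.44 CPM in induced cultures. Its partner INSIG2 was at 13.9, 13.5 and 13.8 CPM in control and at 12.4, 14.5 and 12.03 CPM in induced cultures. Per exon length (TPM), INSIG1 stood at 1.37, 1.36 and 1.23 times INSIG2 in control and at 1.47, 1.45 and 0.849 times in induced cultures, so only induced replicate 3 had less INSIG1 than INSIG2.

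SREBF2 was at 77.3, 85.4 and 84.6 CPM in control and at 77.0, 78.4 and 69.5 CPM in induced cultures, a log2 fold change of -0.14 (95% interval -0.31 to 0.04). SREBF1 was at 17.3, 24.0 and 28.3 CPM in control and at 20.2, 26.3 and 21.1 CPM in induced cultures, with a log2 fold change of -0.04 (95% interval -0.46 to 0.39). SCAP was at 30.9, 35.4 and 34.6 CPM in control and at 34.1, 29.6 and 37.6 CPM in induced cultures. The groups overlapped in SREBF1, SREBF2 and SCAP. SREBF1 has a GC content of 61.5% and was lowest in control replicate 1, as were MVK, PMVK and MVD.

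Fatty acid synthesis runs from ACLY, which makes cytosolic acetyl-CoA from citrate, through ACACA, which makes malonyl-CoA, to FASN, which builds the chain. ACLY was among the steadiest members, at 347, 346 and 338 CPM in control and at 352, 341 and 340 CPM in induced cultures (log2 fold change 0.00, 95% interval -0.13 to 0.14). ACACA was at 118, 101 and 98.8 CPM in control and at 122, 116 and 113 CPM in induced cultures (log2 fold change 0.14, 95% interval -0.05 to 0.34). FASN was at 126, 248 and 317 CPM in control and at 250, 385 and 284 CPM in induced cultures. Its control values differed more than 2-fold in the order of the libraries' GC trend, FASN has the highest GC content of the members (65.2%), and its log2 fold change of 0.41 (SE 0.31) was not distinguishable from that spread. With the GC correction it was also 0.41 (adjusted p = 0.260, edgeR).

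The remaining enzymes lengthen and desaturate the chain. SCD, which makes monounsaturated fatty acids, was at 455, 418 and 404 CPM in control and at 486, 520 and 420 CPM in induced cultures (log2 fold change 0.16, 95% interval -0.06 to 0.37). ELOVL6, an elongase of saturated and monounsaturated chains, was at 136, 127 and 130 CPM in control and at 154, 162 and 124 CPM in induced cultures (log2 fold change 0.16, 95% interval -0.08 to 0.40). Over the 7 fatty acid enzymes, edgeR and DESeq2 called 0 higher and 0 lower, and the median log2 fold change was 0.14. At an unadjusted p under 0.05, 0 were higher and 1 was lower (FADS2, 14.3%), where 8.13% and 10.6% of all tested genes were.

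FADS1 and FADS2 are the desaturases that make polyunsaturated fatty acids, and their genes are neighbours on chromosome 11 (GRCh38, FADS1 at 61799627 to 61829318 on the minus strand, FADS2 at 61792980 to 61867354 on the plus strand). FADS2 was at 221, 226 and 219 CPM in control and at 192, 182 and 118 CPM in induced cultures, with no overlap between the groups (log2 fold change -0.44, SE 0.16, adjusted p = 0.208, edgeR). FADS1 was at 175, 169 and 165 CPM in control and at 193, 195 and 144 CPM in induced cultures. The pair therefore stood on opposite sides of the controls in induced replicates 1 and 2. On the TPM scale FADS2 was at 1.22, 1.29 and 1.29 times FADS1 in control and at 0.964, 0.905 and 0.794 times FADS1 in induced cultures. This ratio was formed after the values were seen and was not tested, and no induced culture reached a control value. The genes overlap on opposite strands, and 5.6% of the exon bases of FADS1 and 5.1% of those of FADS2 are shared with other genes.

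ABCA1 moves cholesterol and phospholipid out of the cell to apolipoprotein A-I. It was at 2.97, 3.07 and 2.82 CPM in control and at 4.69, 6.10 and 6.69 CPM in induced cultures. All 3 induced cultures lay above all 3 controls, and the induced cultures were the more spread. The log2 fold change was 0.98 (SE 0.15, 95% interval 0.64 to 1.33), a 1.98-fold rise with an adjusted p = 0.0175 (edgeR). ABCA1 shares no exon base with another annotated gene. The call was lost without control replicate 1 (adjusted p = 0.0785), control replicate 2 (0.105), control replicate 3 (0.0963) or induced replicate 2 (0.0541), in fits of fewer libraries, and the log2 fold change stayed between 0.88 and 1.12 in all alternatives. It was the only member without overlap in the upward direction, which 11.5% of all genes showed, and CYP51A1, TM7SF2, STARD4 and FADS2 were the 4 members without overlap in the downward direction, which 14.7% of all genes showed.

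**Figure D3:**
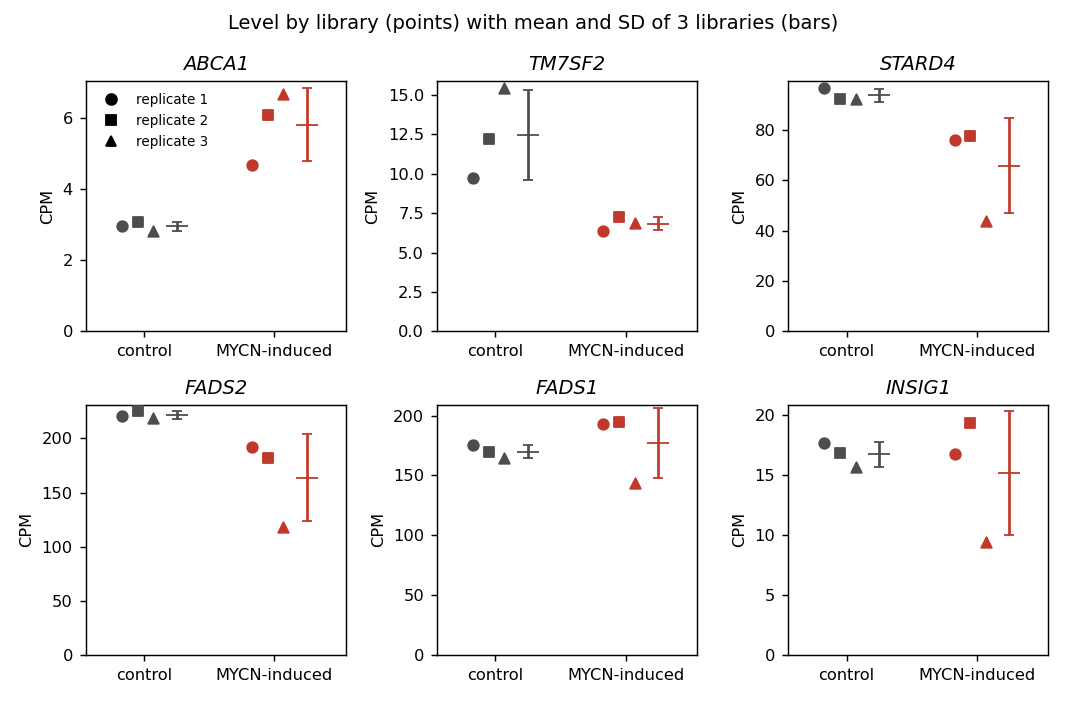
Points are the CPM of each library (circle, square and triangle for replicates 1, 2 and 3) in control (grey) and MYCN-induced (red), and the bars beside them are the mean and SD of 3 libraries, with each y axis starting at 0. ABCA1 lies higher and TM7SF2, STARD4 and FADS2 lie lower in every induced library, while FADS1 and INSIG1 lie below all controls in induced replicate 3 and not in the others.

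MYCN-induced replicate 3 held the lowest of the 3 induced values in 25 of 32 members (78.1%), against 40.1% of all tested genes, and the lowest value of all 6 libraries in 20 of 32 (62.5%), against 27.0% of all tested genes. Among the 18 sterol enzymes these counts were 15 and 13, and among the 6 SREBP control genes 4 and 4. Genes outside the members shared the trait. The counts were 11 (57.9%) and 10 (52.6%) of 19 tested genes of other fatty acid synthesis and activation, and 9 and 8 of 10 proliferation genes. They were 8 and 3 of 16 isoprenoid branch genes, 5 and 3 of 17 uptake and trafficking genes, and 1 and 0 of 10 other SREBP processing genes. Among the members, the largest distances below the control mean, on the log2 scale, were -1.10 in STARD4, -0.91 in FADS2, -0.86 in TM7SF2, -0.83 in INSIG1 and -0.73 in IDI1. In induced replicates 1 and 2, by contrast, 13 of the 18 sterol enzymes lay above the control mean in either library, where 48.9% and 48.1% of all tested genes did. In induced replicate 3 it was 3 of 18, where 47.9% of all tested genes did. The median of the 18 enzymes relative to the control mean was 0.07, 0.23 and -0.32 on the log2 scale in induced replicates 1, 2 and 3.

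The summed level of the 18 sterol enzymes was 643, 644 and 638 CPM in control and 676, 749 and 500.1 CPM in induced cultures. The means were therefore alike (641 ± 3.13 CPM and 642 ± 128 CPM, SD, n = 3) and the spread was not. The median coefficient of variation of the members was 5.55% in control and 15.2% in induced cultures, against 9.15% and 14.5% over all tested genes, and it was larger in induced cultures for 24 of 32 members and for 66.6% of all tested genes. Other genes moved with that library. The summed level of 10 genes of the amino acid stress response was 178 to 184 CPM in control and 462, 290.5 and 1067 CPM in induced replicates 1, 2 and 3. Of the 9 tested, all 9 had a log2 fold change above 0 (median 2.00). At an unadjusted p under 0.05, 8 were higher (88.9%, against 8.13% of all tested genes) and 0 lower, and DESeq2 called 5 higher and 0 lower. In edgeR 2 (PHGDH and MTHFD2) rose past the threshold. Each lost its call in 4 of the 6 fits that left out 1 library (adjusted p up to 0.207 and 0.140, without control replicate 2). PHGDH also lost it with a filter of 100 counts in each library (adjusted p = 0.0672, edgeR). The summed level of 10 proliferation genes was 1676 to 1703 CPM in control and 1750, 1856 and 1020 CPM in induced cultures, and 0 of the 10 passed the threshold in either direction (0 at an unadjusted p under 0.05, 0 by DESeq2). The part of these differences in the sterol values was not tested.

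Without MYCN-induced replicate 3, 3 of 32 members were called higher, where 3.68% of all tested genes were, and 3 of 32 lower, where 4.44% of all tested genes were (edgeR, adjusted p under 0.05). The higher ones were ABCA1 (log2 fold change 0.88, adjusted p = 0.0136), ELOVL6 (0.28, adjusted p = 0.0231) and FADS1 (0.20, adjusted p = 0.0465). The lower ones were TM7SF2 (-0.86, adjusted p = 0.0490), STARD4 (-0.28, adjusted p = 0.0185) and FADS2 (-0.24, adjusted p = 0.0345). The median log2 fold change of the members was 0.15 in that fit, and that of the sterol enzymes 0.18, with 14 of 18 above 0. SQLE (0.42, adjusted p = 0.0537), MSMO1 (0.22, adjusted p = 0.0582), ACAT2 (0.29, adjusted p = 0.0584) and SCD (0.25, adjusted p = 0.0530) were next to the threshold in the same fit and did not pass it. STARD4 and FADS2 passed the threshold in this fit and not in the fit of all libraries, where their log2 fold changes were -0.51 and -0.44 (adjusted p = 0.211 and 0.208).

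**Figure D4:**
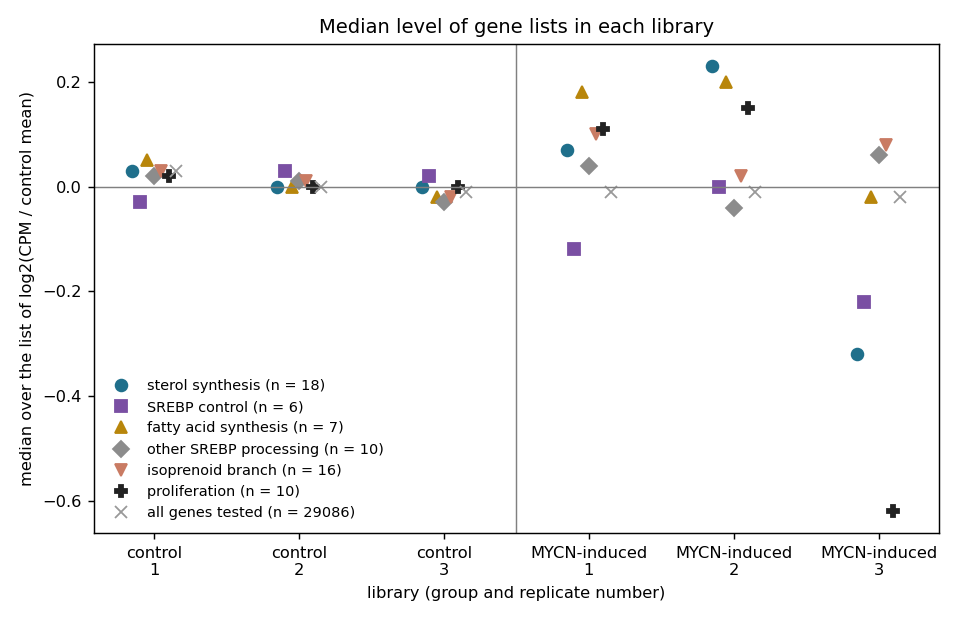
Points give the median over a gene list of the log2 of CPM over the control mean in each of the 6 libraries. The sterol synthesis enzymes lie at 0.07 and 0.23 in MYCN-induced replicates 1 and 2 and at -0.32 in replicate 3, and the proliferation genes lie at 0.11, 0.15 and -0.62, while the isoprenoid branch and the other SREBP processing genes stay between -0.04 and 0.10.

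Levels between genes can be compared per exon length, in TPM. In control cultures SCD was the highest member at 134 ± 15.1 TPM (SD, n = 3), followed by ACLY at 108 ± 6.88 TPM. FASN followed at 40.0 ± 15.2 TPM, FDPS at 37.5 ± 3.42 TPM, SQLE at 35.9 ± 0.477 TPM and FADS2 at 34.5 ± 1.88 TPM, and neighbours among these 4 lay within their SD of each other. The sterol enzymes reached from FDPS and SQLE down to MVD at 1.82 ± 0.299 TPM and, with the same limit on its count, FDFT1 at 0.614 ± 0.0506 TPM. SREBF2 stood at 17.9 ± 0.477 TPM and SREBF1 at 4.58 ± 0.883 TPM. ABCA1 was the lowest member at 0.428 ± 0.0335 TPM in control and reached 0.839 ± 0.145 TPM in induced cultures, so that its rise began from a low level.

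**Figure D5:**
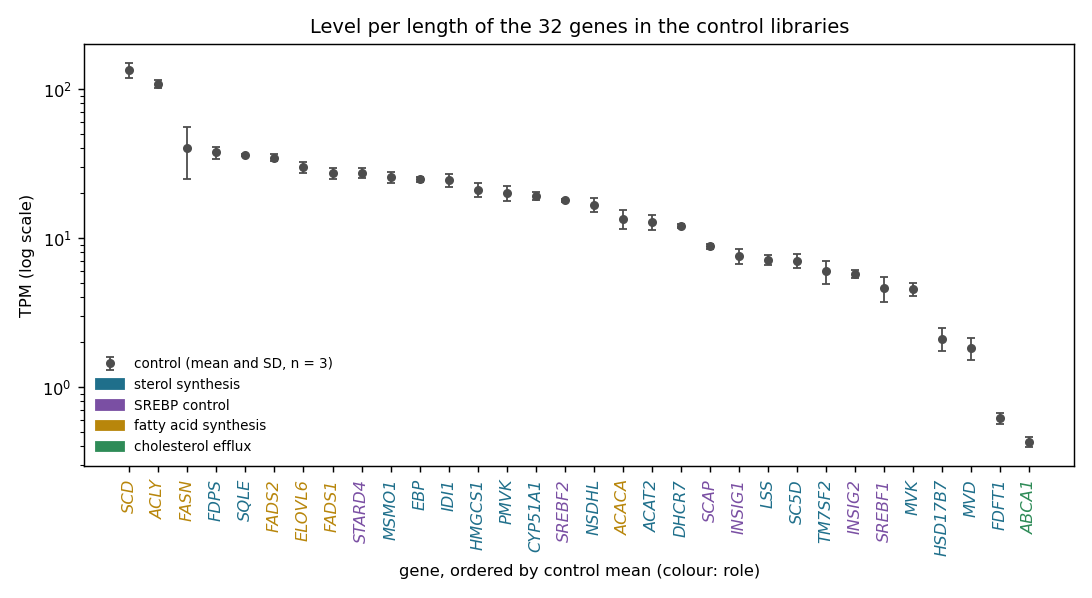
The y axis gives TPM on a log scale (mean and SD of the 3 control libraries) and the x axis the 32 genes in falling order, coloured by role. SCD at 134 and ACLY at 108 TPM stand above the rest, and FDFT1 at 0.614 TPM, whose count may understate its expression, and ABCA1 at 0.428 TPM are the lowest.

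Among genes around these pathways, calls fell in the lists of glycerolipid synthesis and fatty acid oxidation. Of 22 tested glycerolipid genes (23 listed), 3 rose (13.6%) and 1 fell (4.5%) past an adjusted p of 0.05 in edgeR. Of all tested genes, 1.02% were called higher and 2.38% lower. At an unadjusted p under 0.05, 5 glycerolipid genes (22.7%) were higher and 1 lower, where 8.13% and 10.6% of all tested genes were. PTDSS1, which makes phosphatidylserine, went from 41.3, 40.9 and 43.4 CPM to 59.3, 61.2 and 60.5 CPM (log2 fold change 0.53, SE 0.06, adjusted p = 0.00751). PLIN2, a coat protein of lipid droplets, went from 3.72, 3.61 and 3.56 CPM to 5.09, 5.70 and 6.95 CPM (log2 fold change 0.70, SE 0.14, adjusted p = 0.0373). CHKA, the choline kinase of phosphatidylcholine synthesis, rose by 0.46 on the log2 scale (SE 0.10, adjusted p = 0.0492). LPIN3, a phosphatidate phosphatase, went from 2.31, 2.696 and 2.702 CPM to 1.70, 1.30 and 1.47 CPM (log2 fold change -0.79, SE 0.15, adjusted p = 0.0337). The groups did not overlap in these 4 genes. In the list of fatty acid oxidation (20 of 23 tested), 0 rose and 1 fell, PPARGC1A, a coactivator of mitochondrial genes, from 1.404, 1.27 and 1.22 CPM to 0.570, 0.708 and 0.861 CPM (log2 fold change -0.86, SE 0.18, adjusted p = 0.0486). The call of PTDSS1 was lost without control replicate 2 (adjusted p = 0.0807), and those of PLIN2, CHKA, LPIN3 and PPARGC1A were lost when any library other than MYCN-induced replicate 3 was left out, with adjusted p up to 0.193, 0.232, 0.179 and 0.199, each reached without control replicate 2.

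The other lists had no gene past the edgeR threshold. At an unadjusted p under 0.05, 8.13% of all tested genes were higher and 10.6% lower. Of 19 tested genes of other fatty acid synthesis and activation, 3 were higher (15.8%) and 5 lower (26.3%) at that p, and DESeq2 called 1 higher and 0 lower. Of 10 other SREBP processing genes, which include the proteases that cleave the SREBPs, 0 were higher and 0 lower at that p, and DESeq2 called 0. Of 16 genes of the isoprenoid branch, 3 were higher (18.75%) and 0 lower at that p, and DESeq2 called 0. Of 17 genes of cholesterol uptake and trafficking, 3 were higher (17.65%) and 0 lower at that p, and DESeq2 called 0. Of 7 genes of LXR signalling and efflux besides ABCA1, 1 was higher (14.3%) and 0 were lower at that p, and DESeq2 called 1 higher and 0 lower. The medians of these 5 lists ran from 0.00 to 0.15 on the log2 scale.

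Some members share exon bases with other annotated genes, and the counting split such pairs between the genes. The share was above 10% in 6 members (CYP51A1 84.5%, HMGCS1 37.7%, EBP 36.4%, ACAT2 22.2%, FDPS 18.6% and IDI1 15.0%) and 0 in 16 members. In HMGCS1, ACAT2, FDPS and IDI1 the partners lie on the opposite strand, and the header of the counts sets no strand option, so reads of such partners cannot be told apart from those of the member. HMGCS1 and IDI1 had replicate 2 highest and replicate 3 lowest of the induced cultures. Of the members without a shared exon base, MVD, SQLE, MSMO1, HSD17B7, SC5D, DHCR7, INSIG1, INSIG2, SCD and ELOVL6 showed that order. PMVK, NSDHL, SCAP, ACACA, FASN and ABCA1, which share none either, did not. The part of the shared bases in the values of HMGCS1 and IDI1 was not tested.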

How the data were processed

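Ribodepleted total RNA of 3 control and 3 MYCN-induced SK-N-AS cultures was sequenced as read pairs, and the sample labels gave the groups. The authors deposited estimated counts per gene: per the file headers, featureCounts 1.6.4 counted unique alignments on exons and shared a pair that overlaps several genes in equal fractions, with no strand option. Per the labels, STAR 2.7.1a and featureCounts 1.5.1 were used on GRCh38, and the methods name a strand option. The headers were followed. Of 60651 gene identifiers 99.72% were matched to symbols, and 92 spike-in rows were 0 in every library.

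Counts were rounded to whole numbers. A gene entered the test if 3 or more libraries held 10 or more counts (29086 genes). The test was that of edgeR 4.0.16 (R 4.3.3, TMM, quasi-likelihood test, Benjamini-Hochberg adjustment over all genes, threshold 0.05, no replicate block). The SE is the log2 fold change divided by the square root of F, and 95% intervals use the t distribution with the fit's degrees of freedom. The biological coefficient of variation was 0.153. Replicates of a group differed by more than sampling noise. On simulated counts of 28666 genes, edgeR recovered 77.2% of 189 genes changed 2-fold and called 4 unchanged genes. The simulation gave every gene the same dispersion and held no outlying library and no GC trend. These values therefore do not measure recovery or false calls in the real libraries. P-values weigh the difference between groups against the spread between these cultures, with each gene's spread drawn toward that of all genes. TPM divide the deposited counts by exon length and serve only to compare levels between genes.

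The members and all gene lists were chosen with earlier results of these data known. Named genes are all members, MYCN, the marker genes, and of each list around the pathways the called genes, at most 4 per direction. Promoters come from RefSeq (GRCh38.p14). Alternatives were scaling by library size or by the upper quartile, DESeq2 1.42.0, a filter of 100 counts in each library or none, a replicate block, each library left out, thresholds of 0.01 and 0.1 and, added after seeing the data, a GC correction (lowess, span 0.3). Circular RNA, protein and lipid measurements were not analysed here. An adrenergic marker, and sums that include it, are not reported here.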

Additional observations from a re-analysis of the deposited data

How the results depend on the processing

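ABCA1 and TM7SF2 kept their calls, as the only members called, under both other scalings, DESeq2, both other count filters, the replicate block and the GC correction, and lost them at a threshold of 0.01 (0 higher, 0 lower). Leaving out 1 library gave 0 to 3 members higher and 0 to 3 lower, and 18 to 1060 of all genes higher and 72 to 1279 lower, against 298 and 692 with all libraries. Of all genes, DESeq2 called 904 higher and 1199 lower, testing without a count filter gave 470 higher, a filter of 100 counts in each library 404 lower, the GC correction (chosen after seeing the data) 596 higher, a threshold of 0.01 gave 36 and 145, and 0.1 gave 706 and 1242. In 16 members, none of them called with all libraries, the log2 fold change turned sign under 1 or more alternatives. The shift reached the SE in IDI1 (0.20), DHCR7 (0.12) and INSIG1 (0.12) without MYCN-induced replicate 3, and in SQLE (-0.014) without replicate 2. Over the left-out libraries the log2 fold changes ran from -0.31 to 0.20 for IDI1, -0.20 to 0.12 for DHCR7, -0.35 to 0.12 for INSIG1 and -0.014 to 0.42 for SQLE. The cause was not tested. Of the members' values under the alternatives, 4 passed the threshold newly and 8 lost it. Deviations of libraries with equal replicate numbers correlated weakly (0.216, -0.019 and 0.074), and those with unequal numbers at -0.193 to 0.082. These few values cannot settle whether equal numbers mark paired cultures. With the replicate block 265 of all genes were higher and 575 lower, and 1 member was higher and 1 lower. CHKA, LPIN3, PLIN2 and PPARGC1A were not called with the block, and CHKA was not called under upper-quartile scaling (adjusted p = 0.0534) or the filter of 100 counts (0.0520). For FDFT1 (146 counts in the smallest case) and other members of few counts, depth limits the precision beside the spread.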
